A study of Mus musculus with 3 samples.

Results

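The 10 genes described here are the Toll-like receptors Tlr2, Tlr4 and Tlr7, their shared adaptor Myd88, the transcription factor subunit gene Nfkb1, and the inflammasome genes Nlrp3, Casp1, Il1b, Il18 and Gsdmd. They are 10 of the 32285 genes in the feature list, named for their place in the pathway with no threshold on a measured value, and all 10 had at least 50 UMIs in the nuclei kept. A UMI (unique molecular identifier) stands for 1 captured RNA molecule. Nuclei of mouse heart were profiled by droplet-based single-nucleus RNA sequencing 2 weeks after surgery, with 1 library in each of 3 groups. Sham-NS had sham surgery and NS, MI-NS had myocardial infarction and NS, and MI-DAPA had myocardial infarction and dapagliflozin, an inhibitor of the renal glucose transporter SGLT2. The labels do not expand NS. Strain, sex, age, the hour of collection, the number of hearts behind a library and the piece of heart taken are not given in the sources used here. With 1 library per group no difference can be tested, so differences between treatments cannot be told apart from differences between animals, pieces of tissue or library preparations. All intervals below are 95% intervals for counting error only, and UMIs of 1 nucleus are not independent, so they may be too narrow. Sets of 3 values are in the order Sham-NS, MI-NS, MI-DAPA.

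Toll-like receptors recognise microbial molecules and molecules set free by damaged cells: Tlr2 and Tlr4 act mainly at the cell surface, and Tlr7 recognises single-stranded RNA in endosomes. Through Myd88 they lead to activation of NF-kB, a factor that switches on inflammatory genes, among them Il1b and Nlrp3. The sensor Nlrp3 then assembles an inflammasome, in which caspase-1 (Casp1) matures the cytokines IL-1β and IL-18 and cleaves gasdermin D (Gsdmd), whose fragment forms pores in the membrane. In the infarcted heart macrophages are a well-known source of IL-1β.

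Upstream sequence is shown for 3 of these genes. Il1b was the cytokine gene with the largest MI-NS to Sham-NS ratio in macrophages, and Tlr2 the receptor gene with the next largest. Nlrp3 is the sensor, and the sequence before 1 of its starts, the one shown, holds the same motif as that of Tlr2. All 3 sequences are from RefSeq windows of build GRCm38, with bases inside a GENCODE exon of the gene left out. Motif positions are counted from the RefSeq start. For Tlr2 that start lies inside the GENCODE gene, so the printed stretch of 91 bases is only the far end of the window and stops before the RefSeq start. Capitals mark TATAAA in Il1b, whose first base lies 31 bases before the start, and a match to a loose form of the NF-kB site (GGGA, 4 bases of any kind, CC) in Tlr2 (172 bases before the start) and Nlrp3 (186 bases before). They lie at chr2:129371140-129371389 (minus strand), chr3:83841768-83841858 (minus strand) and chr11:59541319-59541567 (plus strand).
Il1b: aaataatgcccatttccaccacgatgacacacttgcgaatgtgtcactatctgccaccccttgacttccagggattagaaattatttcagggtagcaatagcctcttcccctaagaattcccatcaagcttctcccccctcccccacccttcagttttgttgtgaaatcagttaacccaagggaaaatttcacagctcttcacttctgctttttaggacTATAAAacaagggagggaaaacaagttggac
Tlr2: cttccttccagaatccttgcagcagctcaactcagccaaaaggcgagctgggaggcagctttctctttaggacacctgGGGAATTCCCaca
Nlrp3: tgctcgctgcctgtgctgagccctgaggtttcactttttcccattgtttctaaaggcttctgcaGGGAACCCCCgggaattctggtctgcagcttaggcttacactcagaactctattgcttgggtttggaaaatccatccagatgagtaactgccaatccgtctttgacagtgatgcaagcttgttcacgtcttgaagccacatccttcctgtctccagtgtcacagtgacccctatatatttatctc

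Both strands were searched over 250 bases, and none of the windows shown holds both motifs. Of 32851 RefSeq windows of that length, 12.4% held TATAAA and 17.6% the loose NF-kB form, so that a match is common and is a description of the sequence only. Windows were at hand for 6 of the 10 genes (7 windows, since Nlrp3 has a pair of starts). The loose NF-kB form was in 2 of the 7 windows and TATAAA in 3. The window of the other Nlrp3 start, which is not shown, held neither.

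There were 9744, 7725 and 6354 barcodes per library. Filtering kept 8296, 7065 and 5372 of them, at a median of 790, 851 and 831 UMIs each. Only 13 to 20 barcodes were shared by any pair of libraries. Cardiomyocyte-like, fibroblast-like, vascular endothelial-like and macrophage-like nuclei were found in every library, so the main cell types of heart tissue were present, and all 10 macrophage markers had UMIs in macrophage-like nuclei of each library. Macrophage-like nuclei numbered 759, 842 and 364, with 528243, 610231 and 230262 UMIs in all, so the MI-DAPA library gave the least precise values. The classes were built without the 10 genes and without the related genes listed below. Levels are given as CPM, the gene's UMIs in a class and library scaled to the same class total. Because CPM is not corrected for gene length, levels are compared between classes and libraries, not between genes.

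A group of 6 genes was highest in macrophages among the 7 classes compared. Mesothelial-like, smooth muscle-like, T cell-like, B cell-like and adipocyte-like nuclei were not among these classes, as each had fewer than 50 in some library. In mesothelial-like nuclei Il18 in MI-NS was near its macrophage-like level. For Nlrp3, Casp1, Il1b, Il18, Tlr2 and Tlr7 the lowest macrophage-like library was above every library of the other 6 classes that had at least 50 nuclei in each library. This held for 6 of the 10 genes, beside 6.67% of the 13022 genes measured in the classes, and macrophage-like nuclei came first by mean level for 8 of the 10, beside 21.8%. Macrophage-like nuclei, which held 5.12% of all UMIs in the kept nuclei, held 64.8% of the UMIs of Nlrp3, 64.2% of Tlr7, 63.7% of Il1b, 43.5% of Tlr2, 40.0% of Il18 and 35.7% of Casp1. The other 4 genes were spread more widely. Macrophage-like nuclei held 13.2% of the UMIs of Gsdmd, 10.5% of Myd88, 10.1% of Tlr4 and 7.13% of Nfkb1. Between 14.7% and 23.9% of the UMIs of each gene lay in clusters of high doublet score, which belong to no class here.

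**Figure D1:**
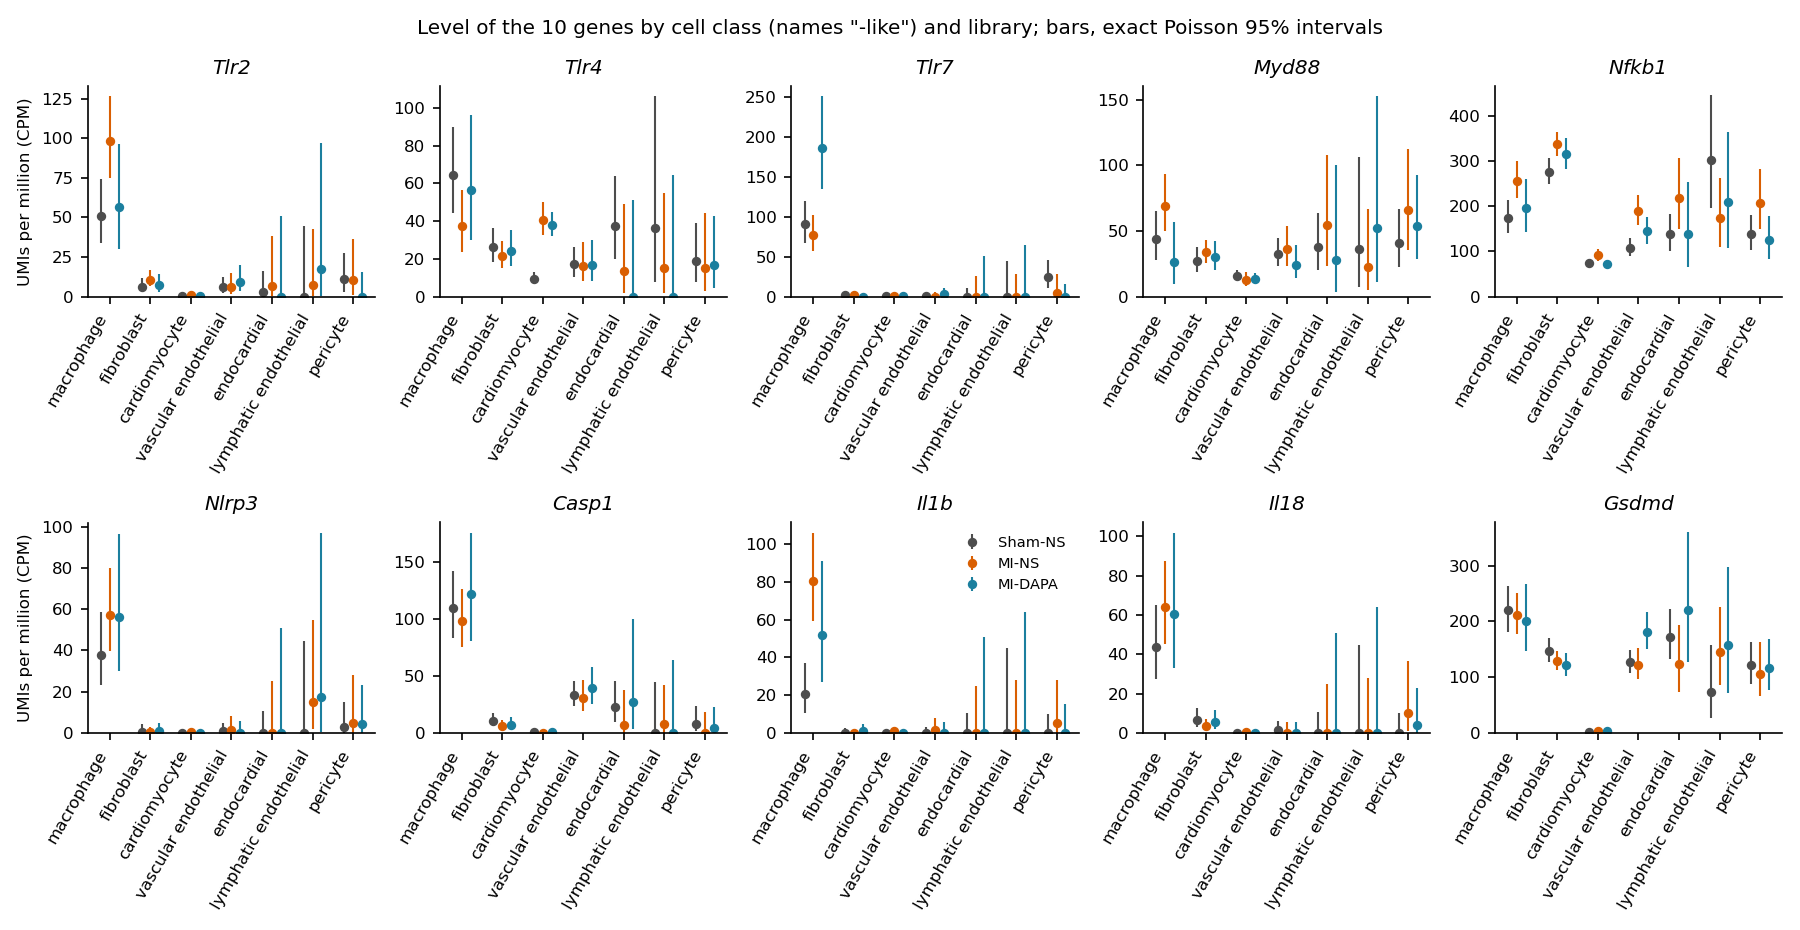
Level (CPM, linear axis from 0) of each gene in the 7 classes with at least 50 nuclei in every library. Points are the 3 libraries and bars are exact Poisson 95% intervals. Macrophage-like nuclei stand apart for Tlr2, Tlr7, Nlrp3, Casp1, Il1b and Il18, whereas Gsdmd, Myd88 and Nfkb1 are seen in every class and Tlr4 is raised in cardiomyocyte-like nuclei of both infarct libraries.

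Free RNA in droplets gives UMIs in nuclei that do not express a gene, so shares of nuclei are given beside those in cardiomyocyte-like nuclei, which are deeper (median 2216, 1932.5 and 2250.5 UMIs against 633, 654 and 591 in macrophage-like nuclei). Nlrp3 had 0 UMIs in 1612 Sham-NS and 1438 MI-DAPA cardiomyocyte-like nuclei and was seen in 1 of 962 in MI-NS. Il1b was seen in 1, 2 and 0 of these nuclei, Il18 in 1, 1 and 0, Tlr7 in 1, 1 and 3 and Tlr2 in 1, 2 and 1, in the same order. For these 5 genes the macrophage-like shares below are above that background. A count of 0 in MI-DAPA cardiomyocyte-like nuclei allows a share of up to 0.209%.

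Tlr2, which pairs with Tlr1 or Tlr6 to recognise lipoproteins, had 27, 60 and 13 UMIs in macrophage-like nuclei. These were 51.1, 98.3 and 56.5 CPM. The MI-NS library was the high one, and the other two were close to each other. The log2 ratio of MI-NS to Sham-NS was 0.93 (0.27 to 1.66), and that of MI-DAPA to MI-NS was −0.76 (−1.79 to 0.08). A UMI of Tlr2 was present in 3.03% (1.93 to 4.51), 6.29% (4.75 to 8.15) and 3.30% (1.71 to 5.69) of macrophage-like nuclei. Thinned to 500 UMIs per nucleus the shares were 1.84%, 4.87% and 2.47%, in the same order. Outside macrophages Tlr2 was low: 6.01, 10.7 and 7.24 CPM in fibroblast-like nuclei and at most 0.94 CPM in cardiomyocyte-like nuclei. In the 461 mesothelial-like nuclei of MI-NS, the cells that line the heart's surface, it stood at 25.0 CPM (17 UMIs), but Sham-NS and MI-DAPA held only 14 such nuclei each.

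Tlr4, the receptor for bacterial lipopolysaccharide (chromosome 4, 66827584 to 66930284, GRCm38), showed its main difference outside the immune cells. In cardiomyocyte-like nuclei it had 38, 87 and 140 UMIs, or 9.47, 40.8 and 38.2 CPM. Both infarct libraries were about 4-fold above Sham-NS and close to each other. The MI-NS to Sham-NS log2 ratio was 2.10 (1.54 to 2.70), that of MI-DAPA to Sham-NS 2.00 (1.49 to 2.57), and that of MI-DAPA to MI-NS −0.10 (−0.49 to 0.31). A Tlr4 UMI was present in 38 of 1612, 79 of 962 and 115 of 1438 cardiomyocyte-like nuclei. In nuclei thinned to 500 UMIs it was 0.124% (2 nuclei), 1.87% and 1.74%. Thinning was done by 1 random draw, so a share that rests on 2 nuclei is rough. The summed level of the 10 macrophage markers in cardiomyocyte-like nuclei was 47.6, 53.5 and 28.9 CPM. The part of RNA from other cells in the Tlr4 difference was not tested.

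Cardiomyocyte-like nuclei fell into 3 clusters, and Tlr4 differed between them. Cluster 18, led by the stress genes Myh7, Nppa, Nppb and Ankrd1, held 1, 165 and 56 nuclei. There Tlr4 stood at 67.9 CPM (46.1 to 96.3) in MI-NS and 112 CPM (72.3 to 165) in MI-DAPA, with a UMI in 14.5% and 30.4% of nuclei. These were the highest Tlr4 levels of the cardiomyocyte-like clusters. The difference was not confined to that cluster. In cluster 0, the main one with 1228, 642 and 1044 nuclei, Tlr4 was at 10.2, 33.6 and 35.2 CPM, with a MI-NS to Sham-NS log2 ratio of 1.71 (1.07 to 2.37). In cluster 8 it had only 2, 5 and 8 UMIs.

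**Figure D2:**
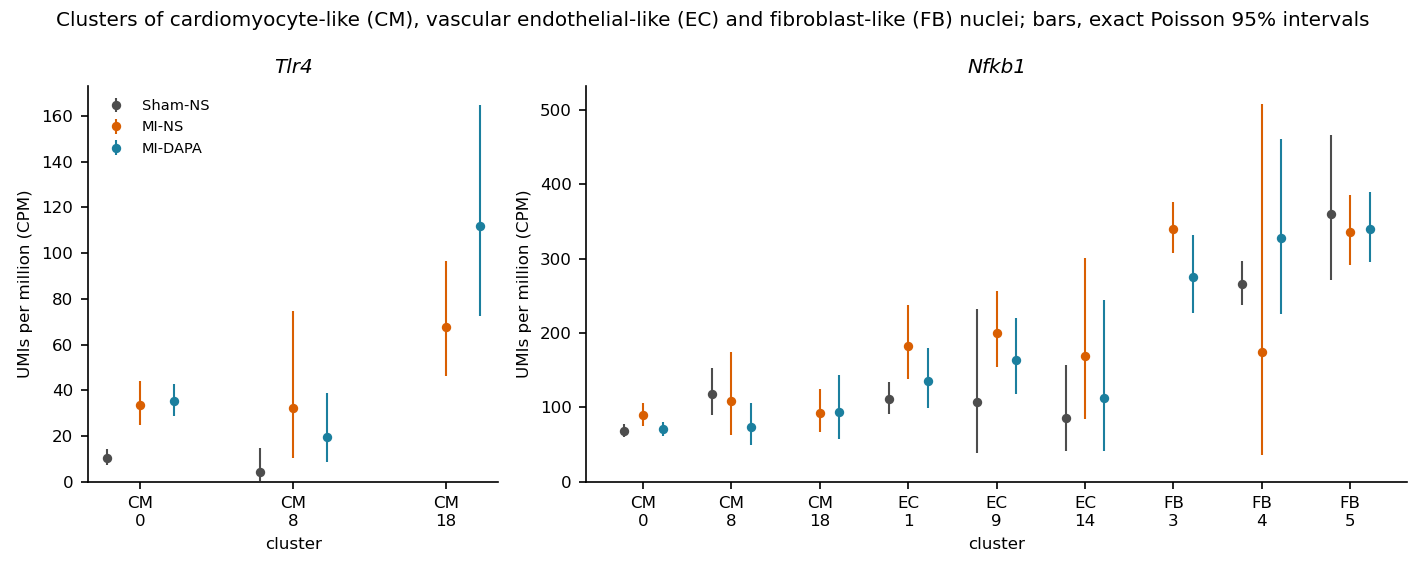
Level (CPM, linear axis from 0) of Tlr4 in the 3 cardiomyocyte-like clusters and of Nfkb1 in the cardiomyocyte-like, vascular endothelial-like and fibroblast-like clusters, by library, for clusters with at least 20 nuclei in that library. Bars are exact Poisson 95% intervals. Tlr4 is higher in both infarct libraries than in Sham-NS within cluster 0 and highest in cluster 18, and the Nfkb1 point of MI-NS is the highest in each vascular endothelial-like cluster, with wide bars in clusters 9 and 14.

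In macrophage-like nuclei Tlr4 was lowest in MI-NS. It had 34, 23 and 13 UMIs, which were 64.4, 37.7 and 56.5 CPM. The MI-NS to Sham-NS log2 ratio was −0.76 (−1.60 to 0.03), so the interval holds no difference. With TMM factors, another scaling, the ratio was −0.86 (−1.70 to −0.07), an interval that does not hold it. Fibroblast-like nuclei held Tlr4 at 26.3, 21.3 and 24.4 CPM and vascular endothelial-like nuclei at 17.2, 16.0 and 16.7 CPM, nearly alike in the 3 libraries.

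Tlr7, which recognises RNA in endosomes, was the gene that was high in MI-DAPA. Macrophage-like nuclei had 48, 47 and 43 UMIs, but MI-DAPA had the fewest such nuclei, so the levels were 90.9, 77.0 and 187 CPM. The log2 ratio was 1.28 (0.65 to 1.91) for MI-DAPA to MI-NS and 1.04 (0.41 to 1.66) for MI-DAPA to Sham-NS. These ratios share the MI-DAPA library. The second fell under 2-fold with TMM factors (0.94), with mixed clusters kept (0.93) and with classes set by marker level (0.74), and under the last rule the first (1.09) had too few UMIs for a call. For MI-NS to Sham-NS it was −0.24 (−0.85 to 0.37). A UMI was found in 5.67% (4.13 to 7.56), 5.11% (3.72 to 6.82) and 9.89% (7.02 to 13.4) of nuclei, and in 3.95%, 3.44% and 7.42% after thinning. Among the 7 classes compared, the next by mean level, pericyte-like nuclei, had 10 Tlr7 UMIs over the 3 libraries. Smaller classes, among them T cell-like and B cell-like nuclei, were not ranked. The gene lies on chromosome X, at 167304929 to 167330558 in GRCm38.

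Myd88, the adaptor of these receptors, was present in every class and had no clear home. Its mean level over the 3 libraries was highest in pericyte-like nuclei (53.4 CPM), followed by macrophage-like nuclei (46.1 CPM), but the libraries of these classes overlapped. In macrophage-like nuclei it had 23, 42 and 6 UMIs, or 43.5, 68.8 and 26.1 CPM. MI-NS was highest and MI-DAPA lowest. The MI-NS to Sham-NS log2 ratio was 0.65 (−0.11 to 1.46). That of MI-DAPA to MI-NS was −1.30 (−2.93 to −0.16), on 48 UMIs, under the 50 set for a call. Fibroblast-like nuclei had 27.0, 33.7 and 29.9 CPM and cardiomyocyte-like nuclei 15.7, 12.7 and 13.4 CPM. Myd88 overlaps Slc22a14 on the same strand and Acaa1a on the other in the GENCODE annotation, so some reads could belong to these genes.

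Nfkb1 encodes p105, the precursor of the NF-kB subunit p50, and was the most widely spread gene, with 4122 UMIs in all kept nuclei. By mean level fibroblast-like nuclei came first (277, 337 and 316 CPM) and cardiomyocyte-like nuclei last (75.0, 91.5 and 72.3 CPM). The 5 classes in between overlapped with their neighbours. In all 4 of the larger classes the MI-NS level of Nfkb1 was above that of Sham-NS, each time by less than 2-fold. The log2 ratio was 0.81 (0.44 to 1.17) in vascular endothelial-like, 0.56 (0.18 to 0.95) in macrophage-like, 0.29 (0.02 to 0.55) in cardiomyocyte-like and 0.28 (0.09 to 0.47) in fibroblast-like nuclei. For MI-DAPA to MI-NS these were −0.39 (−0.79 to 0.00), −0.39 (−0.91 to 0.09), −0.34 (−0.61 to −0.07) and −0.09 (−0.29 to 0.10). Both comparisons share the MI-NS library, so that a single high library gives opposite signs. Scaling mattered here: over all measurable genes of cardiomyocyte-like nuclei the median was 0.13 for MI-NS to Sham-NS and −0.16 for MI-DAPA to MI-NS. With TMM factors the Nfkb1 ratio of MI-NS to Sham-NS was 0.59 (0.22 to 0.95) in vascular endothelial-like and 0.46 (0.08 to 0.85) in macrophage-like nuclei. In cardiomyocyte-like nuclei it was 0.053 (−0.22 to 0.32) and in fibroblast-like nuclei 0.17 (−0.02 to 0.36), so that both intervals then held no difference. The cardiomyocyte-like MI-DAPA to MI-NS ratio became −0.076 (−0.35 to 0.20).

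Within the vascular endothelial-like class, cluster 1 had Nfkb1 at 111, 183 and 135 CPM, with a MI-NS to Sham-NS log2 ratio of 0.72 (0.23 to 1.20). Cluster 9 had 107, 200.4 and 163 CPM, but only 6 UMIs in Sham-NS, and its ratio of 0.80 (−0.30 to 2.41) held no difference. In fibroblast-like nuclei clusters 3 and 4 were split between MI-NS and Sham-NS, so cluster and library cannot be told apart there. Cluster 4, with 1574 Sham-NS and 25 MI-NS nuclei, was at 266 CPM in Sham-NS, while cluster 3, with 7 Sham-NS and 1292 MI-NS nuclei, was at 341 CPM in MI-NS. Cluster 5, which had nuclei of all 3 libraries, gave 359.5 CPM, 336 CPM and 340.1 CPM, with a MI-NS to Sham-NS log2 ratio of −0.11 (−0.53 to 0.36). That interval also holds the ratio of the whole class.

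Nlrp3, the inflammasome sensor, was nearly confined to macrophage-like nuclei: the other classes with 50 nuclei in each library had at most 3 UMIs each over the 3 libraries. Macrophage-like nuclei had 20, 35 and 13 UMIs. The levels of 37.9, 57.4 and 56.5 CPM overlapped within their intervals (23.1 to 58.5, 40.0 to 79.8 and 30.1 to 96.5). The MI-NS to Sham-NS log2 ratio was 0.58 (−0.23 to 1.47). A UMI was seen in 2.24%, 3.33% and 3.57% of nuclei. The interval of the fold, 0.851 to 2.77, holds both no difference and a level more than 2-fold higher, so no difference was detectable at this depth.

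Casp1, the protease of the inflammasome, did not follow Il1b. Macrophage-like nuclei had 58, 60 and 28 UMIs, or 109.8, 98.3 and 122 CPM. The log2 ratio was −0.16 (−0.70 to 0.39) for MI-NS to Sham-NS and 0.32 (−0.40 to 0.98) for MI-DAPA to MI-NS. A UMI was present in 7.11%, 6.18% and 7.42% of nuclei. Casp1 had a clear second site in vascular endothelial-like nuclei, at 33.5, 30.6 and 39.5 CPM, above fibroblast-like nuclei (10.5, 6.18 and 7.24 CPM) in each library.

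Il1b showed the largest difference among the macrophage genes. Macrophage-like nuclei had 11, 49 and 12 UMIs, or 20.8 (10.4 to 37.3), 80.3 (59.4 to 106) and 52.1 (26.9 to 91.0) CPM. The log2 ratio of MI-NS to Sham-NS was 1.90 (0.98 to 3.04), that is 3.73-fold (1.98 to 8.22). With classes set by marker level, a stricter nucleus filter or thinned nuclei Il1b kept a ratio above 2-fold but had too few UMIs for a call. The log2 ratio of MI-DAPA to MI-NS was −0.58 (−1.67 to 0.31), an interval that runs from 0.314 to 1.24 times the MI-NS level and so holds no difference. That of MI-DAPA to Sham-NS was 1.32 (0.02 to 2.65) on 23 UMIs. A UMI was found in 8 of 759 nuclei (1.05%, 0.456 to 2.07), 33 of 842 (3.92%, 2.71 to 5.46) and 8 of 364 (2.20%, 0.954 to 4.28). Because some nuclei had several Il1b UMIs, up to 6 in 1 nucleus, the shares are the safer measure. After thinning they were 0.791%, 2.97% and 1.92%. Il1b overlaps the antisense gene Il1bos, which is in the feature list.

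Neutrophils also make IL-1β, and no cluster had their markers. In macrophage-like nuclei S100a8, Retnlg, Ly6g and Trem1 were at 0 in all 3 libraries, while the 8 neutrophil markers summed to 195, 342 and 287 CPM. In MI-DAPA all 66 of these UMIs were of Csf3r. The 6 monocyte markers summed to 150, 439 and 248 CPM, in the order of Il1b, with Chil3 at 0 in each library. Fibroblast markers in macrophage-like nuclei summed to 405, 1303 and 486 CPM. Of macrophage-like nuclei with Il1b, 3 of 8, 7 of 33 and 3 of 8 had a UMI of S100a8, S100a9, Retnlg, Csf3r or Cxcr2. Of those without Il1b, 87 of 751, 150 of 809 and 53 of 356 had one. The part of neutrophils, monocytes or fibroblasts in the Il1b values was not tested.

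Il18 had 23, 39 and 14 UMIs in macrophage-like nuclei, at 43.5, 63.9 and 60.8 CPM. The MI-NS to Sham-NS log2 ratio was 0.54 (−0.23 to 1.36) and that of MI-DAPA to MI-NS −0.04 (−1.07 to 0.84), so no difference was detectable. Its second site was the mesothelial-like class, which held 23.2% of its UMIs. There MI-NS had 41 Il18 UMIs in 31 of 461 nuclei, at 60.4 CPM (43.3 to 81.9), while Sham-NS and MI-DAPA had 2 and 1 UMIs in 14 nuclei each. Whether the mesothelial-like level differed between libraries could not be told from so few nuclei. Il18 overlaps Bco2 and Tex12 on the opposite strand.

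Gsdmd, the pore-forming substrate, was widespread but low in cardiomyocytes. Macrophage-like nuclei had 116, 129 and 46 UMIs, at 219.6, 211 and 199.8 CPM, and the libraries were close: the log2 ratio was −0.06 (−0.43 to 0.32) for MI-NS to Sham-NS and −0.07 (−0.60 to 0.41) for MI-DAPA to MI-NS. Endocardial-like, fibroblast-like, lymphatic endothelial-like and pericyte-like nuclei had mean levels of 115 to 172 CPM. Cardiomyocyte-like nuclei had 2.74, 3.28 and 3.27 CPM. In vascular endothelial-like nuclei Gsdmd stood at 127, 122 and 181 CPM. MI-DAPA was the high library, with a log2 ratio to MI-NS of 0.56 (0.15 to 0.98) and to Sham-NS of 0.51 (0.15 to 0.87). In endothelial clusters 1 and 9 the MI-DAPA to MI-NS ratio was 0.39 (−0.19 to 0.99) and 0.83 (0.14 to 1.56).

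Across the classes few of these genes passed a 2-fold difference. A gene counted as measurable in a class where the 2 libraries compared had at least 50 of its UMIs. In macrophage-like nuclei all 10 genes were measurable for MI-NS to Sham-NS, and 1 (Il1b) was at least 2-fold higher and 0 lower, beside 5.44% and 2.25% of 4707 measurable genes. The median log2 ratio of the 10 genes was 0.55 against 0.04 over all measurable genes. For MI-DAPA to MI-NS 7 were measurable, 1 (Tlr7) was higher and 0 lower, beside 1.33% and 4.54% of 3746 genes. For MI-DAPA to Sham-NS 4 were measurable, 1 (Tlr7) was higher and 0 lower, beside 1.52% and 2.08% of 3168 genes. The last 2 comparisons share the MI-DAPA library.

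In cardiomyocyte-like nuclei 3 genes were measurable in each comparison. Tlr4 was the 1 called higher in MI-NS to Sham-NS (7.34% of all measurable genes higher, 2.21% lower) and in MI-DAPA to Sham-NS (2.16% and 1.89%), and 0 were called in MI-DAPA to MI-NS (0.384% and 4.56%). Fibroblast-like nuclei had 4 measurable genes and 0 called. There the background, higher and lower, was 8.99% and 3.91% for MI-NS to Sham-NS, 1.13% and 3.30% for MI-DAPA to MI-NS, and 3.98% and 2.67% for MI-DAPA to Sham-NS. Vascular endothelial-like nuclei had 4, 2 and 4 measurable genes in these comparisons and 0 called. Their background was 6.33% and 2.65%, then 0.838% and 3.66%, then 2.02% and 2.09%. Counts this small do not set the group apart from other genes.

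**Figure D3:**
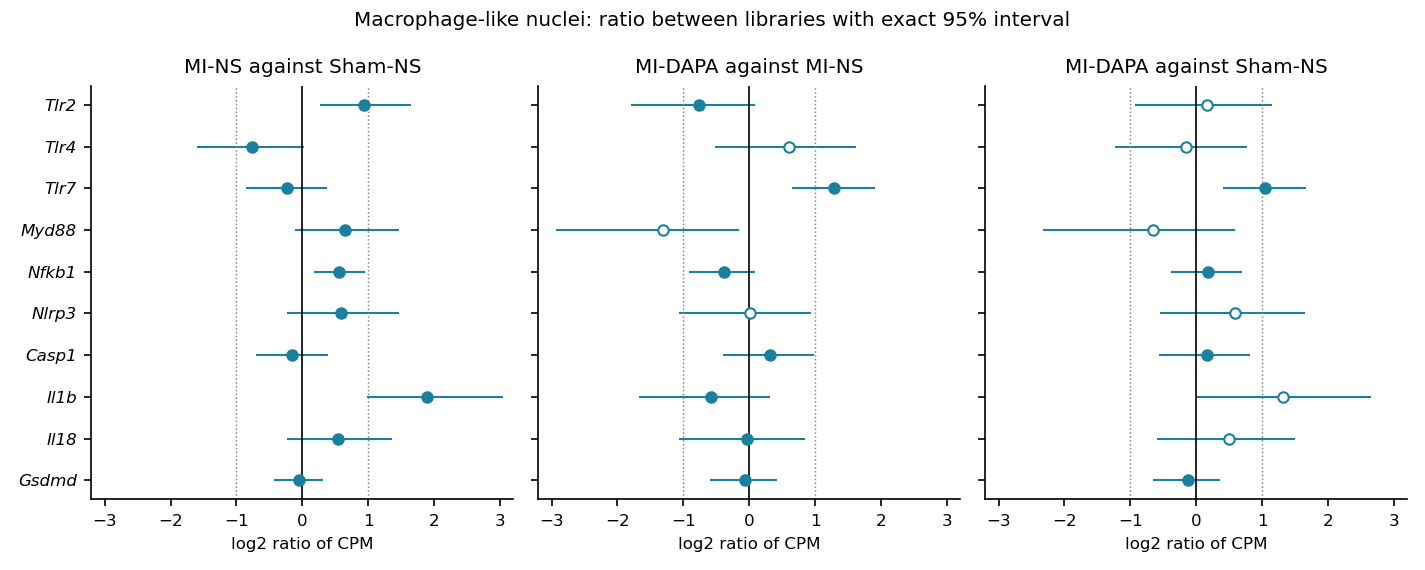
Log2 ratio of CPM between libraries in macrophage-like nuclei for the 10 genes, with exact 95% intervals. Filled points have at least 50 UMIs over both libraries, open points fewer, and dotted lines mark 2-fold. Il1b is past 2-fold in MI-NS against Sham-NS and Tlr7 is past 2-fold in MI-DAPA against each other library, while Casp1 and Gsdmd lie near 0 in all 3 panels.

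The macrophage-like class was made up differently in each library, which touches every macrophage-like ratio above. Subcluster 0, led by the resident-macrophage genes Lyve1 and Cd163, held 354, 36 and 74 of the nuclei. Subcluster 2, with Gpnmb and Fabp5, held 12, 201 and 63, and subcluster 4, with C6, Ccl8 and Clec10a, held 8, 245 and 14. Subcluster 5, with Itgax and Flt3, held 30, 134 and 29. Il1b was uneven among them. Resident subcluster 0 had 0 Il1b UMIs in Sham-NS, which allows up to 0.847% of nuclei. Subcluster 4 had 0 in its 245 MI-NS nuclei, up to 1.22%. The 49 Il1b UMIs of MI-NS lay instead in subclusters 2 (14 UMIs), 5 (13 UMIs), 3 (9 UMIs) and 6 (9 UMIs, in 4 nuclei), with 4 UMIs elsewhere. Subcluster 6, whose leading genes include Marco and DNA replication genes such as Mcm2, had the highest MI-NS level of Il1b (331 CPM, 9 UMIs in 4 nuclei) and of Nlrp3 (294 CPM, 8 UMIs in 6 nuclei) among the subclusters, on very few nuclei. Markers of other cell types were raised in these subclusters: 4 of 6 mast cell markers were at least 2-fold above the other macrophage-like nuclei in subcluster 6, and 4 of 8 dendritic cell markers in subcluster 5. Their part in the Il1b and Nlrp3 levels was not tested.

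Tlr7 was spread otherwise. Within MI-NS it had 4 UMIs in the 36 nuclei of resident subcluster 0 and 1 UMI in the 134 nuclei of subcluster 5. In the subclusters that held most MI-DAPA nuclei, Tlr7 was higher in MI-DAPA than in MI-NS each time. The levels in MI-NS and MI-DAPA were 176 and 264 CPM in subcluster 0, 66.2 and 289.7 CPM in subcluster 1, 119.7 and 199 CPM in subcluster 2, and 79.1 and 156 CPM in subcluster 3. Each of these rests on 2 to 16 UMIs, and their intervals overlap. For Tlr2 in MI-NS the most UMIs lay in subcluster 4 (20 of 60 UMIs) and subcluster 2 (13 UMIs). These also held the most MI-NS nuclei, 245 and 201 of 842, so the counts alone do not show a higher level there.

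**Figure D4:**
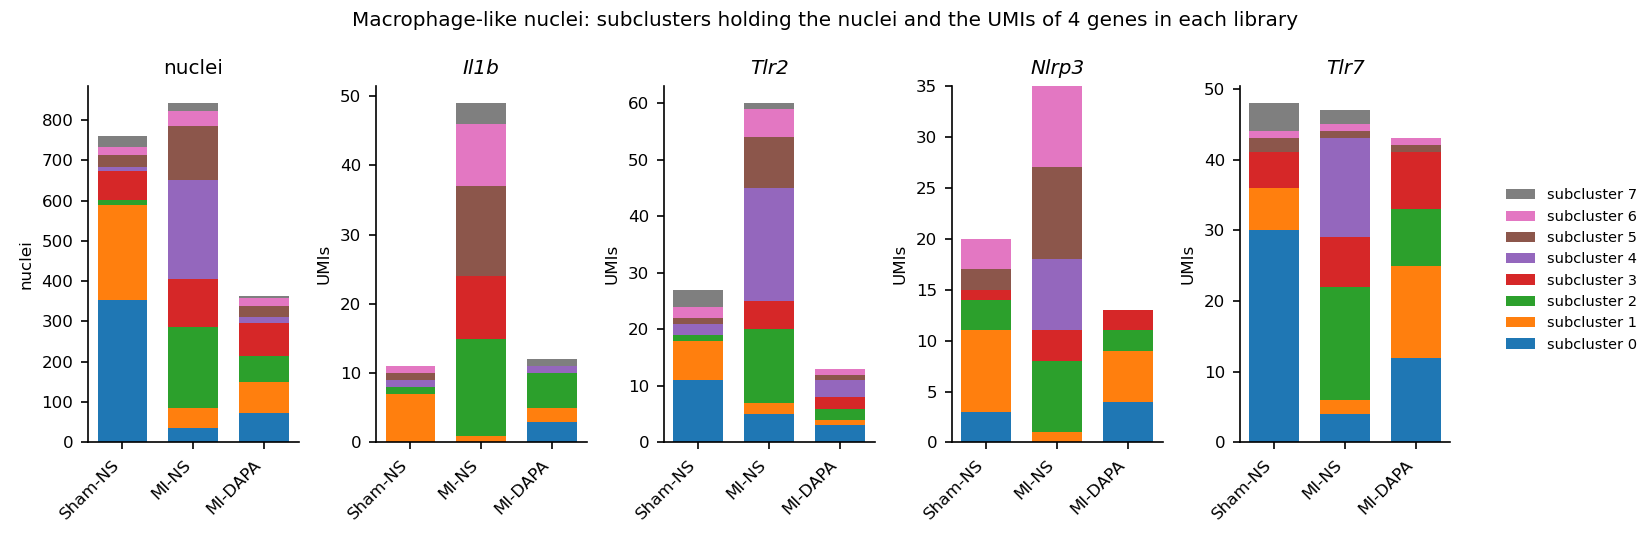
Stacked bars of the number of macrophage-like nuclei and of the UMIs of Il1b, Tlr2, Nlrp3 and Tlr7 in each library, split by the 8 macrophage subclusters (linear axes from 0). The 49 Il1b UMIs of MI-NS come from subclusters 2, 3, 5 and 6 for the most part and none from subcluster 4, which holds 245 of its nuclei.

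Detection in single nuclei was sparse. At least 1 of the 10 genes had a UMI in 42.2%, 48.5% and 41.8% of macrophage-like nuclei, and in 33.2%, 37.9% and 34.1% after thinning. At most 4 of the genes were seen in 1 nucleus. Of 1965 macrophage-like nuclei, 58 had Nlrp3, 49 had Il1b and 2 had both, where the product of the shares gives 1.45 nuclei. With each of the other genes Il1b shared between 1 nucleus (Tlr4, product 1.62) and 8 nuclei (Tlr2, product 2.19). These are too few to read an order from.

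The other genes of the pathway were taken from 6 lists of 86 genes, of which 45 were measurable in macrophage-like nuclei for MI-NS to Sham-NS. Their median log2 ratio was 0.03. Past 2-fold were 3 genes, each higher in MI-NS, beside 5.44% of all measurable genes, so the lists lay near the background. Cd180 and Ly86, which form a receptor complex related to Tlr4, had log2 ratios of 1.22 (0.57 to 1.95) and 1.07 (0.61 to 1.57). Nfkbid, an atypical NF-kB regulator, was at 1.45 (0.53 to 2.56). Ly86 had 54, 132 and 22 UMIs and was again lower in MI-DAPA than in MI-NS (−1.15, −1.90 to −0.52). Irf7, a factor downstream of Tlr7 that drives interferon genes, was at 123, 111 and 47.8 CPM. It was lower in MI-DAPA than in MI-NS (−1.17, −2.29 to −0.29) and than in Sham-NS (−1.31, −2.44 to −0.43), whereas Tlr7 was higher.

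By list, 2 of 8 measurable Toll-like receptors and co-receptors were past 2-fold in this comparison, 1 of 11 NF-kB genes, and 0 of 8 inflammasome sensors, 0 of 6 pyroptosis genes and 0 of 11 signalling genes. Of the 11 IL-1 family genes only the IL-33 receptor gene Il1rl1 was measurable (−0.24, −0.69 to 0.21). Il1a had 0 UMIs in macrophage-like nuclei of all 3 libraries and the antagonist Il1rn 0, 1 and 0. Among the abundant genes, Unc93b1, which carries Tlr7 to endosomes, stood in macrophage-like nuclei at 1058, 1091 and 1094 CPM. Naip5, a sensor of flagellin, was at 379, 351 and 465 CPM, and Txnip, an NLRP3-binding protein gene, at 454, 516 and 491 CPM. Nlrp1b was at 184, 279 and 426 CPM and was past 2-fold in MI-DAPA to Sham-NS (1.21, 0.79 to 1.63). Nlrp1b and the Naip genes have close copies, so their counts are uncertain. For MI-DAPA to MI-NS 2 of 35 measurable list genes were past 2-fold lower (Ly86 and Irf7) and 0 higher, beside 4.54% and 1.33% of all genes. For MI-DAPA to Sham-NS 1 of 33 was higher (Nlrp1b) and 1 lower (Irf7), beside 1.52% and 2.08%. The inflammasome adaptor Pycard had 17, 25 and 3 UMIs, too few for a ratio.

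Outside macrophages the lists had other genes past 2-fold, of which 3 are named here after their values were seen. For MI-NS to Sham-NS 3 of 31 measurable list genes were higher in cardiomyocyte-like nuclei (7.34% of all genes), 5 of 41 in fibroblast-like (8.99%) and 3 of 35 in vascular endothelial-like nuclei (6.33%), with 0 lower in each. Txnip in cardiomyocyte-like nuclei had 500, 1064 and 955 UMIs, or 125, 499 and 260.5 CPM, with a log2 ratio of 2.00 (1.85 to 2.16) for MI-NS to Sham-NS and −0.94 (−1.07 to −0.81) for MI-DAPA to MI-NS. Unc93b1 was far lower there, at 6.98, 14.1 and 3.82 CPM, with a MI-NS to Sham-NS ratio of 1.01 (0.22 to 1.81). Relb, an NF-kB subunit gene, was past 2-fold in MI-NS to Sham-NS in all 3 of these classes. Its log2 ratio was 1.93 (1.34 to 2.57) in vascular endothelial-like, 1.59 (1.04 to 2.20) in fibroblast-like and 1.20 (0.48 to 1.94) in cardiomyocyte-like nuclei, and 0.81 (0.10 to 1.57) in macrophage-like nuclei.

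The genes most like each of the 10 were found over 27 points (a class in a library with at least 50 nuclei) by Pearson correlation of log2(CPM + 10). These points share libraries and depth, and the values are descriptions. For Nlrp3 they were C3ar1 (0.94), Nlrp1b (0.93) and Card9 (0.92), for Il1b Bcl2a1b (0.97), Peak1os (0.95) and Tlr1 (0.94), and for Tlr7 Lilra5 (0.95), Mmp13 (0.95) and Tnfaip8l2 (0.94). For Tlr2 they were Cd300c2 (0.88), Fcgr3 (0.87) and Folr2 (0.85), for Il18 Pak1 (0.89), Irf5 (0.87) and Apobr (0.85), and for Casp1 Shtn1 (0.88), Mctp1 (0.87) and 2610203C22Rik (0.83). The widely spread genes gave Arpc1b (0.91), Hnrnph1 (0.91) and Trim26 (0.91) for Gsdmd and lower values for the other 3. The highest was 0.79 for Myd88 (Ost4), 0.78 for Tlr4 (Otub2) and 0.77 for Nfkb1 (Rps12).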

How the data were processed

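Nuclei of mouse heart from 3 libraries, 1 per group, were sequenced after release with a detergent buffer and purification on an iodixanol cushion, per the labels' protocols. The authors deposited matrices of UMI counts with lists of genes and barcodes, made with Cell Ranger 6.0.1 per the file headers. The gene and barcode names (other, no measurement) are as deposited. Seurat and build mm10 are named in the submitters' processing notes. The annotation release and whether intronic reads were counted are not given in the sources used here, and long genes such as Tlr4 (102701 bases) can gain most from intronic reads. Every barcode had at least 500 UMIs.

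Nuclei with at least 300 genes and at most 10% mitochondrial UMIs were kept. Scrublet (scanpy 1.11.5) called 0, 0 and 1 doublets, so it had not worked as a filter, and clusters with a median doublet score over 0.1 (15.7%, 11.9% and 10.3% of nuclei) were left out as mixed. Clustering used 2000 variable genes per library, 30 components, 15 neighbours and Leiden resolution 1.0 (leidenalg 0.10.2), without the 10 genes and the pathway genes. Naming a cluster took 3 or more markers raised 2-fold or more over all other nuclei, and names may differ from the study's. Macrophage-like nuclei were clustered again (20 components, resolution 0.8). UMIs were summed per class and library. Ratios had 0.5 UMI added to each sum, with exact conditional binomial intervals, levels had exact Poisson and shares Clopper-Pearson intervals, at 95%. A count of 0 was given a limit of 3 counts. TMM factors came from edgeR 4.0.16. Gene positions and overlaps are from GENCODE M21 (GRCm38).

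Genes named outside the 10 were those past 2-fold at the ends of each list, up to 3 abundant genes of a list, a few of background interest whose low counts had been seen (Il1a, Il1rn, Pycard), 3 outside macrophages (Txnip, Unc93b1, Relb), and the 3 most alike. The 10 genes and all lists were chosen with earlier results of these data known. Alternatives were another scaling, nucleus filter, resolution, class rule, UMI minimum and depth.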

Additional observations from a re-analysis of the deposited data

How the results depend on the processing

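No paired analysis was possible because each group has 1 library. Of the 52 ratios of single genes in the 4 larger classes, 0 were counted as reversed under any alternative. Only a ratio at least 2-fold in the main setting could be so counted. Smaller ratios could change sign: that of Tlr4 in cardiomyocyte-like nuclei, MI-DAPA to MI-NS, was negative in the main setting and 0.17 with TMM factors. With a stricter nucleus filter 3 of 52 moved beyond their interval and with nuclei thinned to 500 UMIs 6 of 52, while the other alternatives moved 0. The UMI minimum leaves the sums unchanged, so it could not move a ratio. Shifts inside a ratio's own counting interval, often wide, were not counted as moved. In macrophage-like nuclei the count of genes at least 2-fold higher for MI-NS to Sham-NS, 1 (Il1b), became 2 (Il1b and Tlr2) with mixed clusters kept and 0 with classes set by marker level, where Il1b had 17 and 3 UMIs, under the 50 needed. It stayed at 1 under the stricter filter and thinning, but there the gene was Myd88 and Tlr2, as Il1b fell under 50 UMIs. For MI-DAPA to MI-NS the count of lower genes, 0, became 2 (Il1b and Tlr2) with mixed clusters kept and 1 (Myd88) from 20 UMIs. The count of higher genes, 1 (Tlr7), became 0 with classes by marker level. For MI-DAPA to Sham-NS the count of higher genes, 1 (Tlr7), became 0 with TMM factors, mixed clusters kept or classes by marker level, and 2 (Il1b and Tlr7) from 20 UMIs. TMM factors moved the median ratio of the pathway lists from 0.03 to −0.071 for MI-NS to Sham-NS and from 0.05 to −0.054 for MI-DAPA to Sham-NS. The Il1b log2 ratio of MI-NS to Sham-NS ranged from 1.76 to 2.84 over the alternatives and that of MI-DAPA to MI-NS from −1.92 (stricter filter) to −0.46. Tlr7 ranged from 1.03 to 1.31 for MI-DAPA to MI-NS and from 0.74 to 1.08 for MI-DAPA to Sham-NS. Tlr4 in cardiomyocyte-like nuclei ranged from 1.86 to 3.71 for MI-NS to Sham-NS, the highest with thinned nuclei, where Sham-NS had 2 UMIs. Counts this low, above all in the 364 MI-DAPA macrophage-like nuclei, limit every comparison, and the cause of the shifts was not tested.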
